A study of Mus musculus with 12 samples.

Results

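The genes that copy DNA in S phase and the genes that carry a cell through mitosis were followed in mouse splenic follicular B cells with and without GPR174. The set holds 53 genes chosen by symbol, each listed in both deposited count tables, out of 12837 genes that the tables share. It was split into 21 replication genes, which peak around the G1/S transition and S phase, and 32 mitotic genes, which peak in G2 and M phase. RNA sequencing had been done on B cells of adult male mice sorted as CD21/35- CD23+. The mice were Gpr174+/Y (WT) or Gpr174-/Y (KO), and in the KO allele the single coding exon of *Gpr174* is replaced in frame by tdTomato, in every cell of the animal. Cells were frozen after the sort (0 h) or kept for 4 h in complete RPMI with serum and no stimulus, with 3 libraries in each of the 4 groups (both genotypes at both times).

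Most follicular B cells rest in G0, with the replication and mitotic programs largely off. When a cell is driven into cycle, E2F transcription factors switch on the replication genes: the MCM helicase and its loading factors, the sliding clamp, and the enzymes that make deoxynucleotides. Mitotic genes follow under B-MYB and FOXM1, which act with the MuvB complex through a promoter element named CHR (cell cycle genes homology region). In the spleen the B cells that divide fastest are those of germinal centers. In bulk libraries fewer cycling cells and less RNA per cell cannot be told apart.

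Library totals ran from 6098941 to 11618787 counts, and levels are given as CPM (a gene's counts relative to the scaled library total). *Gpr174* itself ranged from 149 to 157 CPM in WT at 0 h and from 153 to 168 CPM at 4 h. Reads remained in KO, at 73.4 to 76.4 CPM and 105 to 118 CPM, below every WT library, and whether they fall outside the replaced exon cannot be told from these tables. *Fcer2a*, which encodes the CD23 of the gate, was present at 1245 CPM or more in every 0 h library. *Cr2*, which encodes CD21/35, was also present at 874 CPM or more in every 0 h library although the gate was CD21/35-. The lowest count of any of the 53 genes in any library was 4, and 52 of them passed the filter on low counts at 0 h. *Stmn1*, a microtubule destabilizer, did not pass and stayed between 0.505 and 1.52 CPM there. KO 4 h replicate 1 stood below the other KO 4 h libraries for the mitotic genes, with a mean log2 CPM over the class of 3.14 against 3.57 and 3.80. The counts and calls that change without it are given both ways.

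Before culture, mitotic transcripts were higher in GPR174-deficient B cells. Of the 32 mitotic genes, 11 were higher in KO and 0 in WT (edgeR adjusted p under 0.05), where 0.485% of all 11345 genes tested were called higher in KO and 0.502% higher in WT. The median log2 difference (WT over KO) was -0.90 over the mitotic genes and 0.00026 over all genes. It was below 0 in 31 of the 32, and 22 had an unadjusted p under 0.05. Averaged over the class, WT libraries had a log2 CPM of 2.86 to 3.23 and KO libraries of 3.74 to 4.00. Every KO library lay above every WT library for 19 of the 32 genes, against 7.85% of all genes. All log2 differences between genotypes are WT over KO, so negative values mark genes higher in KO.

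**Figure D1:**
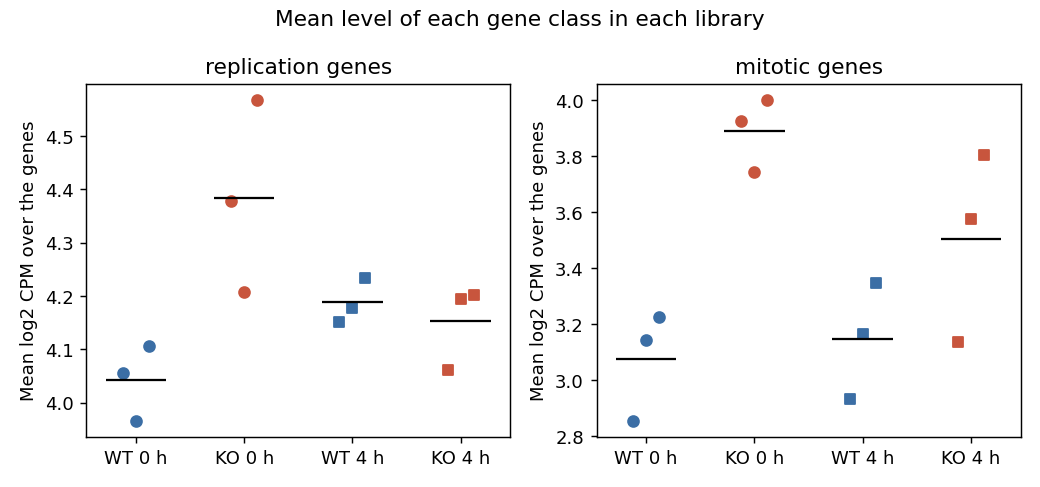
Mean log2 CPM (y axis) over the replication genes (left) and the mitotic genes (right) in each library (points) by group (x axis), with the group mean as a line. The mitotic means of the KO 0 h libraries, 3.74 to 4.00, sit above all WT 0 h libraries, whereas at 4 h KO replicate 1 (3.14) lies within the WT range (2.93 to 3.35) and the other KO libraries (3.57 and 3.80) lie above it.

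*Mki67*, which encodes the proliferation antigen Ki-67 that coats mitotic chromosomes (chr7:135689784-135716361), is the standard marker of cycling cells. It stood at 91.9, 139 and 154 CPM in the WT 0 h libraries and at 299.7, 244 and 352 CPM in KO, a 2.34-fold difference (log2 -1.23 ± 0.14 SE, edgeR adjusted p = 0.000341). *Top2a*, the topoisomerase that untangles sister chromatids (chr11:98992943-99024189), gave 24.8, 36.5 and 40.0 CPM in WT and 75.3, 51.1 and 90.2 CPM in KO (2.15-fold, adjusted p = 0.00499). WT and KO libraries did not overlap for either gene.

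The cyclin A2 gene *Ccna2* (chr3:36564865-36572150), whose product drives S phase and entry into mitosis, had 4.39, 4.93 and 5.82 CPM in WT and 13.4, 11.6 and 16.7 CPM in KO. It was 2.76-fold higher in KO (log2 -1.46 ± 0.21, adjusted p = 0.00172). Its catalytic partner *Cdk1* had the largest fold of the set, 3.81 (adjusted p = 0.029), from 0.675, 1.23 and 2.59 CPM in WT to 5.43, 4.86 and 7.44 CPM in KO. The B-type cyclins, which activate CDK1 at mitotic entry, were split: *Ccnb2* was called (2.25-fold, adjusted p = 0.0383), whereas *Ccnb1*, at 1.56 CPM in WT, was not (adjusted p = 0.486). *Cdc20*, the activator of the anaphase-promoting complex, was not called (adjusted p = 0.477).

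Among centromere genes, *Cenpf* (chr1:189640606-189688086), a kinetochore protein of G2 and M phase, had 9.91, 8.52 and 10.6 CPM in WT and 22.1, 23.6 and 27.4 CPM in KO (2.52-fold, adjusted p = 0.000341). *Cenpe*, the kinetochore motor that aligns chromosomes (chr3:135212537-135273611), had 16.3, 18.5 and 22.0 CPM in WT and 44.5, 34.6 and 48.3 CPM in KO (2.25-fold, adjusted p = 0.000341). In contrast, *Cenpa*, the histone H3 variant that marks centromeres, had 38.2, 39.5 and 39.2 CPM in WT and 40.6, 37.6 and 46.8 CPM in KO, and the groups overlapped (log2 -0.11 ± 0.10, adjusted p = 0.707).

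Of the 7 genes with *Kif* symbols, kinesin motors of the spindle and midzone, 3 were called: *Kif4* (2.67-fold), *Kif11* (2.37-fold) and *Kif15* (1.70-fold). *Kif20a*, *Kif20b*, *Kif22* and *Kif23* were not, at 1.05- to 1.35-fold. *Prc1*, which bundles midzone microtubules, was called (1.87-fold, adjusted p = 0.0223). The calls of *Kif15* and *Prc1*, and those of *Ccnb2*, *Cdk1* and *Kif4*, were lost when single libraries were left out, with adjusted p of up to 0.0814, 0.167, 0.176, 0.142 and 0.205 over all alternatives. The class count fell from 11 to 6 without KO 0 h replicate 1 and to 7 without KO 0 h replicate 3. The spindle assembly factors *Tpx2*, *Nusap1* and *Hmmr* lay at 2.06-, 1.55- and 1.85-fold with adjusted p of 0.0687 to 0.127, and all 3 KO libraries lay above all 3 WT libraries for each of them.

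No gene of the mitotic kinases and the spindle checkpoint (*Aurka*, *Aurkb*, *Plk1*, *Bub1*, *Bub1b*) or of their partner survivin (*Birc5*) was called at 0 h, although *Bub1* (2.27-fold, adjusted p = 0.0656) and *Birc5* (1.91-fold, adjusted p = 0.065) came near. *Birc5* had 4.16, 5.04 and 6.62 CPM in WT and 11.1, 9.88 and 9.23 CPM in KO, with no overlap. The cytokinesis genes *Anln* and *Ect2* were not called (adjusted p = 0.0687 and 0.338). The condensin genes *Ncapg*, *Ncapd2* and *Smc2*, which compact chromosomes, were not called either. *Smc2* had 51.1, 66.5 and 63.3 CPM in WT and 55.3, 56.2 and 60.7 CPM in KO, and was the single mitotic gene with a value above 0 (log2 0.06 ± 0.10).

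**Figure D2:**
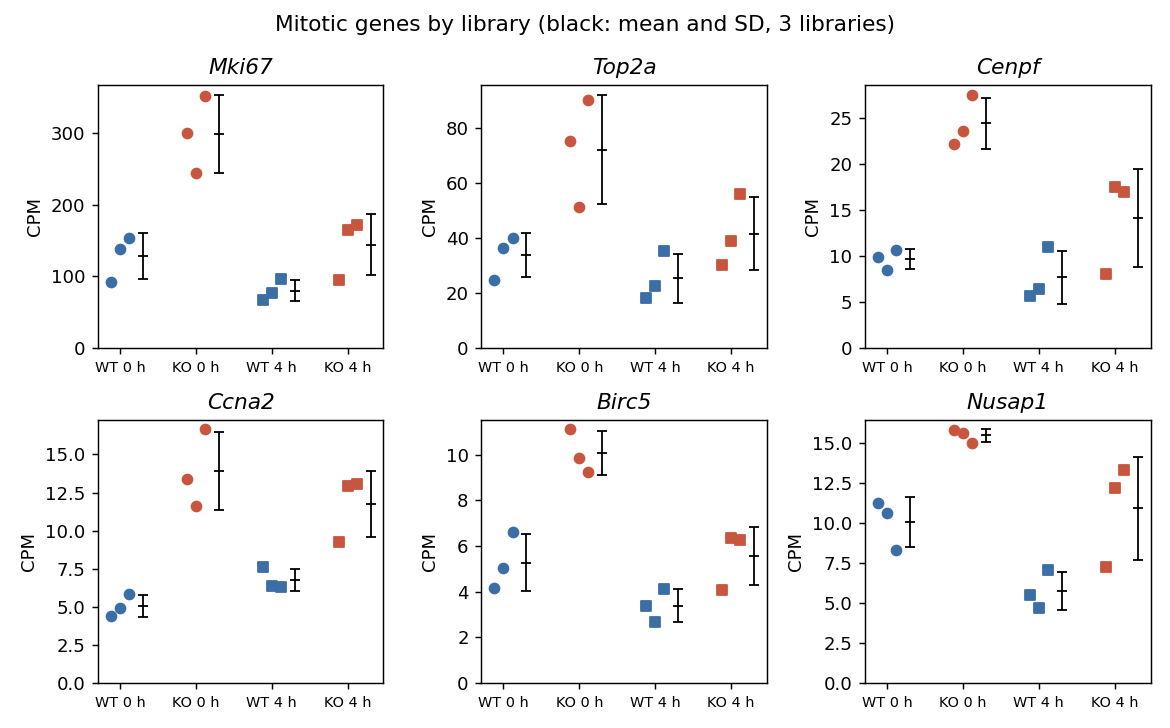
CPM (y axis, from 0) of 6 mitotic genes in each library by group (x axis), with the mean and SD of 3 libraries in black. For all 6 the KO 0 h libraries lie above the WT 0 h libraries. *Mki67* is lower at 4 h in both genotypes, with a WT mean of 80.3 CPM and a KO mean of 144 CPM.

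The replication genes gave no call at 0 h: 0 of the 20 tested passed in edgeR, with 10 at an unadjusted p under 0.05, and DESeq2 also called 0. Without KO 0 h replicate 2 it was 2. The median was -0.26, with 19 below 0. Every KO library lay above every WT library for 8 of the 21, against 7.85% of all genes. The class averaged a log2 CPM of 3.97 to 4.11 over the WT libraries, below the 4.21 to 4.57 of the KO libraries.

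The genes of the MCM2-7 helicase, which unwinds DNA at the fork, differed little between genotypes, at 1.02- to 1.32-fold. *Mcm6* (chr1:128331590-128359664), the largest of these, had 51.4, 57.0 and 62.1 CPM in WT and 79.1, 59.7 and 85.4 CPM in KO (adjusted p = 0.0952), and the groups overlapped. *Mcm3* (chr1:20802968-20820312) had 48.4, 48.0 and 50.0 CPM in WT and 61.4, 53.5 and 59.8 CPM in KO (1.20-fold, adjusted p = 0.159), with no overlap. *Cdt1*, which loads the helicase at origins, differed by 1.11-fold and its loading partner *Cdc6* by 2.48-fold, the latter from a WT mean of 1.66 CPM and with an adjusted p of 0.198. The sliding clamp gene *Pcna* was the one replication gene with a value above 0 (log2 0.09 ± 0.11).

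Among the genes of deoxynucleotide supply, *Rrm2*, the cell cycle-limited subunit of ribonucleotide reductase (chr12:24708241-24714146), had 9.46, 8.52 and 9.31 CPM in WT and 14.9, 10.2 and 19.8 CPM in KO (1.66-fold, adjusted p = 0.119). Its partner *Rrm1* differed by 1.14-fold, and *Tk1*, *Dut* and *Tyms* by 1.07- to 1.21-fold. Of the chromatin genes, *Uhrf1*, which brings the maintenance DNA methyltransferase to new DNA (chr17:56303321-56323486), had the lowest p of the class, with 3.38, 5.72 and 5.10 CPM in WT and 9.10, 7.37 and 10.9 CPM in KO (1.93-fold, adjusted p = 0.0836). *Hells*, a chromatin remodeler that supports DNA methylation, had 14.7, 17.7 and 11.99 CPM in WT and 19.8, 20.6 and 23.0 CPM in KO (1.44-fold, adjusted p = 0.129). Values for *Ezh2*, the H3K27 methyltransferase, *E2f1*, and the replisome genes *Cdc45* and *Gins2* ranged from 1.19- to 1.53-fold with no call.

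**Figure D3:**
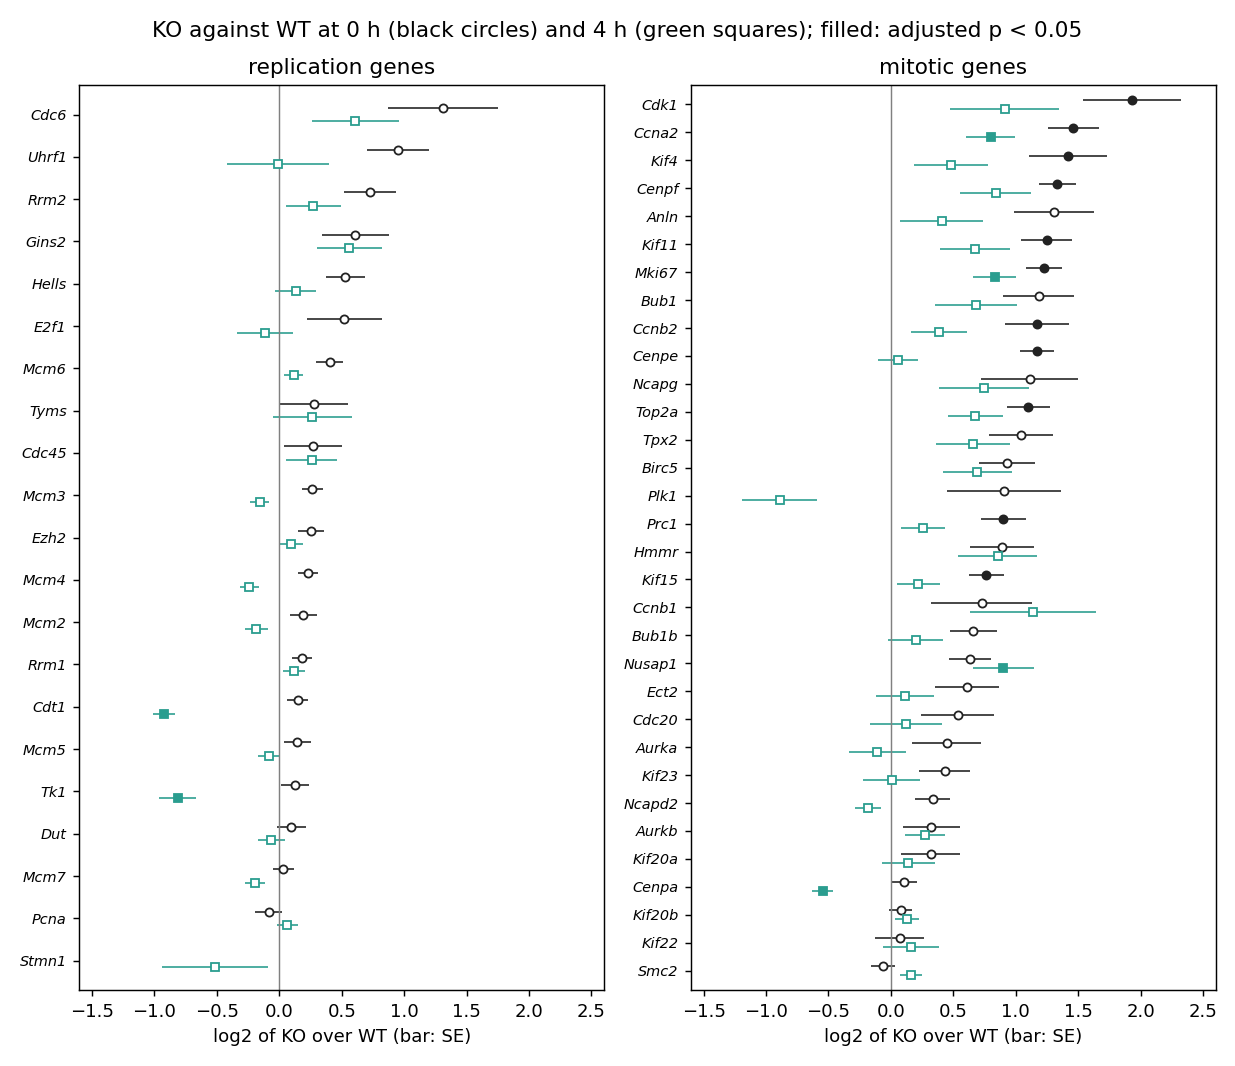
Log2 of KO over WT (x axis, bars show the SE) for each replication gene (left) and mitotic gene (right), at 0 h (black circles) and 4 h (green squares). Filled symbols passed an edgeR adjusted p of 0.05, and *Stmn1* was tested at 4 h only. Most mitotic genes lie to the right at 0 h and nearer to 0 at 4 h.

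Within both classes the genes with the lowest level per length tended to have the larger excess in KO. Per kb of exon, the replication genes *Pcna* (19.6 CPM per kb), *Cdt1* (17.3), *Mcm4* (17.0) and *Dut* (15.4) led in WT at 0 h, and the libraries of *Cdt1*, *Mcm4* and *Dut* overlapped, so their order is not resolved. *Mki67* (12.7 CPM per kb) and *Smc2* (11.0) led the mitotic genes and overlapped too, followed by *Kif20b* (7.26) and *Cenpa* (6.64). At the other end stood *Cdk1* (0.304), *Anln* (0.316) and *Cdc6* (0.318). Spearman's rho between the mean level per kb and the log2 difference at 0 h was 0.73 over 20 replication genes and 0.39 over 32 mitotic genes. These are correlations across genes measured in the same libraries, and low genes also carry larger errors. *Mki67* was the exception at the top, high per kb and 2.34-fold higher in KO.

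The promoters of the classes differed in the letters they carry. RefSeq windows (GRCm38.p6) from 250 bases before to 50 after the start were at hand for 46 of the 53 genes, 50 windows in all. They were searched on both strands for the CHR (TTTGAA), the CCAAT box (CCAAT), which binds NF-Y, and an E2F-like site (TTTCCCGC, TTTCGCGC, TTTGCCGC or TTTGGCGC). The CHR letters were in 83.3% of 30 mitotic windows and 10% of 20 replication windows, against 17.9% of all 32851 promoter windows. The CCAAT letters were in 83.3% and 65%, against 37.4%. The E2F-like letters were in 13.3% of mitotic and 45% of replication windows, against 2.26% of all. The upstream 150 bases are shown 5′ to 3′ on the gene's strand for mitotic genes higher in KO at 0 h (*Mki67*, *Top2a*, *Cdk1*), one that was not (*Cenpa*), and 2 replication genes, with any such match in capitals (ATTGG and TTCAAA are CCAAT and CHR on the other strand). They lie at chr7:135716380-135716529 (minus strand), chr11:99024190-99024339 (minus), chr10:69352913-69353062 (minus), chr5:30666736-30666885 (plus), chr1:128359706-128359855 (minus) and chr8:122567865-122568014 (plus).
*Mki67*: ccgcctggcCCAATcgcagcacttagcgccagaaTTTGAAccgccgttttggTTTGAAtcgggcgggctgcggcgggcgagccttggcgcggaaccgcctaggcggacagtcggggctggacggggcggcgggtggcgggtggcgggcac
*Top2a*: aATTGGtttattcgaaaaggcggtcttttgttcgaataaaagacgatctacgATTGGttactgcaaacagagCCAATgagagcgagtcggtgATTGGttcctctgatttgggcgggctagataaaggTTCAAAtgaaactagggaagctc
*Cdk1*: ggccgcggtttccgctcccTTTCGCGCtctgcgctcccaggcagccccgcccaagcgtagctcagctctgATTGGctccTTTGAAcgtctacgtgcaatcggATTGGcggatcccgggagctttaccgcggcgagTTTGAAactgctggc
*Cenpa*: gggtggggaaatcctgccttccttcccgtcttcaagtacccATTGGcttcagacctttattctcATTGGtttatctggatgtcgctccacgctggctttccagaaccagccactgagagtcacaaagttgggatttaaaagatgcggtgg
*Mcm6*: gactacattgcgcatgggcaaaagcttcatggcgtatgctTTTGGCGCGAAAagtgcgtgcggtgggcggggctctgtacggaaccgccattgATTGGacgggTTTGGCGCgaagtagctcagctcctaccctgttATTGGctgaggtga
*Cdt1*: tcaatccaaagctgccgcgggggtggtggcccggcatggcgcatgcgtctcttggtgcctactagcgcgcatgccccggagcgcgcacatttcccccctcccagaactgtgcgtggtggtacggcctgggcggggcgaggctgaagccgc

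*Mki67* carries 2 CHR matches and *Cdk1* carries 2 CHR and 1 E2F-like match. In *Cenpa* the CHR letters lie 17 bases after the start, outside the printed stretch. *Mcm6* carries 3 E2F-like matches, of which 2 overlap, and the match of *Cdt1* lies 33 bases after its start. The CHR letters did not separate mitotic genes with a large excess in KO from those without: the median log2 difference at 0 h was -0.89 over 23 genes with them and -0.93 over 5 without. *Cenpa*, *Kif20b*, *Kif22*, *Ncapd2* and *Smc2*, all within 1.3-fold, were among the 23. The replication genes with an E2F-like match (9 genes) had a median of -0.27, and those without (9 genes) of -0.19. A match is a description of the letters and not of a factor's binding.

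Most markers of germinal center B cells had values on the KO side at 0 h, as the mitotic genes did. Of the 8 on the list 7 were listed in the tables, and 6 had values below 0, with a median of -0.65. Of the 7, 2 were called higher in KO, where 0.485% of all genes were. The marker on the WT side was *Bcl6*, with 203, 241 and 236 CPM in WT and 213, 205 and 211 CPM in KO, and the groups overlapped. *S1pr2*, which confines cells to the germinal center, had 4.39, 5.83 and 7.34 CPM in WT and 14.5, 12.2 and 15.7 CPM in KO (log2 -1.27 ± 0.21, adjusted p = 0.00685). The summed level of the 7 genes, most of it *Bcl6*, was 228 to 291 CPM in WT and 263 to 305 CPM in KO, and none was at 0 in all libraries of a group. In each of the 4 groups the library with the lowest *S1pr2* was also the one with the lowest *Mki67* and the lowest mitotic mean. Of the same list, *Bcl6*, *Fas* and *Rgs13* did not follow this in every group, whereas the plasma cell marker *Igj* did. The share of all genes with the same lowest libraries was not counted. The part of germinal center cells in the mitotic difference was not tested. Plasma cell markers gave 1 call, *Sdc1*, which was higher in WT, with sums of 440 to 495 CPM in WT and 431 to 477 CPM in KO. *Igj* lay on the KO side and was not called (log2 -0.87 ± 0.28, edgeR adjusted p = 0.173). Markers of T cells (sums of 22.5 to 37.0 and 29.6 to 35.1 CPM), myeloid cells (56.0 to 93.9 and 78.0 to 143 CPM), erythroid cells (73.3 to 106 and 65.8 to 227 CPM), marginal zone B cells (1221 to 1303 and 1073 to 1249 CPM) and immature B cells (155 to 180 and 149 to 161 CPM) gave 0 calls between genotypes at 0 h in edgeR, as did the general B cell markers (8338 to 8787 and 8040 to 8332 CPM). At an unadjusted p under 0.05 there were 0 T cell, 3 myeloid, 1 erythroid and 2 marginal zone markers. For immature, plasma cell and general B cell markers it was 0, 2 and 2. A lean to the KO side was not particular to the germinal center list. Values below 0 were found for 4 of 4 erythroid markers tested (median -0.70) and 5 of 7 myeloid markers (median -0.35). Medians were -0.20 for T cell, -0.03 for marginal zone, 0.04 for plasma cell, 0.06 for general B cell and 0.17 for immature markers.

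After 4 h fewer mitotic genes were called higher in KO, and 2 replication genes were higher in WT. Of the 32 mitotic genes 3 were higher in KO and 1 in WT, where 5.67% of all 11123 genes tested were higher in KO and 5.22% higher in WT, and the median was -0.33 with 28 below 0 (-0.48 without KO 4 h replicate 1). Every KO library was above every WT library for 2 of the 32, *Ccna2* and *Nusap1*, against 13.7% of all genes. This rested on KO 4 h replicate 1: without it, a comparison added after seeing the data, the count was 18 of 32, against 17.6% of all genes, and included *Mki67*, *Top2a*, *Cenpf* and *Birc5*. *Ccna2* had 7.58, 6.39 and 6.33 CPM in WT and 9.22, 12.9 and 13.04 CPM in KO (1.74-fold, adjusted p = 0.0141). *Nusap1*, a microtubule-bundling protein of the spindle (chr2:119618298-119651244), had 5.48, 4.67 and 7.07 CPM in WT and 7.24, 12.2 and 13.3 CPM in KO (1.87-fold, adjusted p = 0.0256). *Mki67* had 67.7, 77.4 and 95.7 CPM in WT and 95.5, 165 and 172 CPM in KO (1.78-fold, edgeR adjusted p = 0.00424; 0.0511 with DESeq2, not called), and its lowest KO library, replicate 1, overlapped the highest WT library. The count of mitotic calls at 4 h depended on that library, with 9 called without it. It fell to 2 without KO 4 h replicate 2 or without KO 4 h replicate 3. *Ccna2* and *Nusap1* each lost their call without either of those libraries, *Ccna2* also without WT 4 h replicate 3 and *Nusap1* also without WT 4 h replicate 1 or 2 (adjusted p of up to 0.0784 and 0.133). The germinal center markers also had values below 0 at 4 h, 7 of 7, with a median of -0.77 and 1 called, where 5.67% of all genes were higher in KO. The call was *Bcl6* (log2 -0.59 ± 0.07, edgeR adjusted p = 1.9e-05). It was not called at 0 h and fell in WT during culture (log2 -0.84 ± 0.07, adjusted p = 3.95e-09). General B cell markers lay on the KO side at 4 h too, 6 of 7 below 0, with a median of -0.43 and 4 called. Of the plasma cell markers, 0 of 5 lay below 0.

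The replication genes had a median of 0.01 at 4 h (-0.12 without KO 4 h replicate 1). Of the 21, 2 were called, both higher in WT, where 5.22% of all genes were. *Cdt1* (chr8:122568015-122573554) had 103, 86.0 and 105 CPM in WT and 48.9, 54.2 and 52.4 CPM in KO (1.90-fold higher in WT, log2 0.92 ± 0.08, adjusted p = 2.37e-06). *Tk1*, the thymidine kinase of the salvage pathway (chr11:117815526-117826092), had 28.2, 45.5 and 38.3 CPM in WT and 23.3, 20.8 and 19.8 CPM in KO (1.76-fold higher in WT, adjusted p = 0.00166). *Mcm4* (chr16:15623897-15637400) came next, with 71.6, 77.1 and 82.9 CPM in WT and 69.4, 61.8 and 66.2 CPM in KO (log2 0.24 ± 0.08, adjusted p = 0.0648). Every WT library lay above every KO library for 8 replication genes, namely *Mcm2*, *Mcm3*, *Mcm4*, *Mcm5*, *Mcm7*, *Cdt1*, *Tk1* and *E2f1*, against 14.1% of all genes. The same 8 genes stood so without KO 4 h replicate 1 (18.2% of all genes). In that setting every KO library lay above every WT library for 7 of the 21 replication genes (17.6% of all genes), in place of 1 (13.7% of all genes). The mitotic gene higher in WT was *Cenpa* (chr5:30666777-30674830), with 66.1, 72.0 and 76.8 CPM in WT and 46.6, 48.1 and 53.2 CPM in KO (log2 0.55 ± 0.08, adjusted p = 0.000399). The mitotic kinase *Plk1* had 4.52, 3.74 and 4.43 CPM in WT and 1.84, 1.91 and 3.12 CPM in KO, also without overlap, but was not called (log2 0.89 ± 0.30, adjusted p = 0.0733).

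Culture of WT cells raised helicase genes and left most mitotic genes without a call. Of the replication genes 7 rose (*Mcm2*, *Mcm3*, *Mcm4*, *Mcm6*, *Mcm7*, *Cdt1* and *Tk1*) and 0 fell, where 15.1% of all 11572 genes tested rose and 18% fell. *Cdt1* rose from 54.2 ± 2.55 to 97.9 ± 10.4 CPM (mean ± SD, n = 3; log2 0.86 ± 0.08 SE, adjusted p = 4.85e-08). *Mcm7* (chr5:138164583-138172422) rose from 44.0, 45.5 and 43.8 CPM to 63.2, 58.6 and 56.4 CPM (1.34-fold, adjusted p = 0.000218) and *Mcm3* to 64.2, 62.6 and 66.2 CPM (1.32-fold, adjusted p = 0.000278). *Tk1* rose by 1.30-fold (adjusted p = 0.033), but its lowest 4 h library lay within the range of the 0 h libraries. Its call was lost without replicate 3 of either time or without WT 4 h replicate 2, and that of *Mcm6* without WT 0 h replicate 1 or WT 4 h replicate 3. The median over the 21 genes was 0.07.

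Of the 32 mitotic genes 5 rose in WT (*Cenpa*, *Cenpe*, *Kif20b*, *Ncapd2* and *Smc2*) and 2 fell (*Nusap1* and *Mki67*), where 15.1% of all genes rose and 18% fell. The median was 0.12. *Cenpa* rose 1.85-fold (log2 0.89 ± 0.09, adjusted p = 7.03e-08), every 4 h library standing above every 0 h library. *Cenpe* rose from 16.3, 18.5 and 22.0 CPM to 25.6, 32.1 and 37.5 CPM (1.69-fold, adjusted p = 0.00164). *Mki67* fell from 128 ± 32.4 to 80.3 ± 14.2 CPM (adjusted p = 0.0103), the ranges overlapped, and the call was lost without WT 0 h replicate 3 and with DESeq2. The calls of *Ncapd2* and *Smc2* were lost without WT 0 h replicate 1 or WT 4 h replicate 3, and that of *Kif20b* without these or WT 0 h replicate 3 or WT 4 h replicate 2. *Nusap1* fell from 10.1 ± 1.55 to 5.74 ± 1.22 CPM (adjusted p = 0.00978).

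Culture of KO cells lowered mitotic genes and raised 0 replication genes in edgeR and in DESeq2. At an unadjusted p under 0.05 the value was above 0 for 1 of them, *Mcm7* (log2 0.20 ± 0.08, adjusted p = 0.0726). Of the mitotic genes 7 fell (*Ccnb2*, *Birc5*, *Bub1*, *Cenpf*, *Kif11*, *Top2a* and *Mki67*) and 2 rose (*Kif20b* and *Smc2*), where 10.3% of all genes rose and 13% fell, and the median was -0.38 (-0.27 without KO 4 h replicate 1). Scaled by library totals in place of TMM, 4 of the 53 genes rose and 8 fell in KO, in place of 2 and 11. *Mki67* fell from 299 ± 54.1 to 144 ± 42.4 CPM (log2 -1.05 ± 0.18, adjusted p = 0.000157), with no overlap. *Birc5* (chr11:117849251-117855743) fell to 4.08, 6.34 and 6.25 CPM (log2 -0.86 ± 0.23, adjusted p = 0.00974; 0.0668 without KO 4 h replicate 1). *Smc2* (chr4:52439243-52488260) rose to 79.2, 85.6 and 90.6 CPM (1.48-fold, adjusted p = 0.000184), and it rose in WT too, to 67.6, 73.4 and 85.6 CPM. With KO 4 h replicate 1 left out, 2 mitotic genes were called in place of 9, and with KO 0 h replicate 1 left out 5 were. *Mki67* and *Smc2* kept their calls under all 18 alternatives.

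Of the replication genes 4 fell in KO (*Rrm2*, *Tk1*, *Uhrf1* and *Hells*), and the median was -0.11. *Uhrf1* fell to 1.84, 4.06 and 4.62 CPM (log2 -1.38 ± 0.35, adjusted p = 0.00577), *Tk1* to 23.3, 20.8 and 19.8 CPM (log2 -0.55 ± 0.14, adjusted p = 0.00673), and *Rrm2* to 6.19, 10.6 and 10.5 CPM (log2 -0.72 ± 0.22, adjusted p = 0.0212; 0.13 without KO 4 h replicate 1). *Tk1* and *Uhrf1* kept their calls under all 18 alternatives, and the count of replication genes was 2 without KO 0 h replicate 1, KO 0 h replicate 3 or KO 4 h replicate 1. Over the same 4 h 4 of 7 germinal center markers fell in WT, where 18% of all genes fell, and 3 of 7 in KO, where 13% did. All 7 had values below 0 in both genotypes, with medians of -1.11 in WT and -1.09 in KO, and their part in these changes was not tested. Such a fall was not particular to germinal center markers. Of 6 marginal zone markers 5 fell and 1 rose in each genotype, with medians of -1.22 in WT and -1.11 in KO. Of 7 general B cell markers 4 fell and 1 rose in WT (median -0.76). In KO 5 of these fell and 2 rose (median -0.26).

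**Figure D4:**
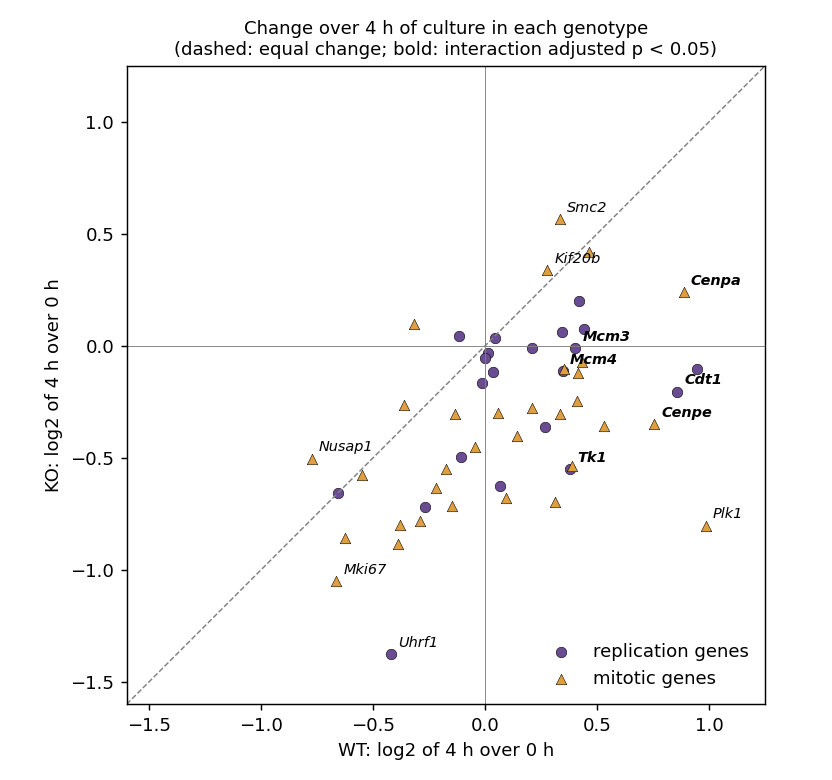
Log2 of 4 h over 0 h in WT (x axis) and in KO (y axis) for each replication gene (circles) and mitotic gene (triangles), with equal change dashed. Genes in bold differed in their change between genotypes, and 20 of 21 replication and 27 of 32 mitotic genes lie below the dashed line.

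The difference between the culture responses was tested as an interaction, the WT change minus the KO change. The change was higher in WT for 4 replication genes (*Mcm3*, *Mcm4*, *Cdt1* and *Tk1*) and 2 mitotic genes (*Cenpa* and *Cenpe*), where 2.45% of all genes had a higher change in WT and 3.94% in KO, and 0 of the 53 had a higher change in KO. Medians were 0.37 over the replication and 0.47 over the mitotic genes, against -0.0011 over all genes. The replication count was 2 without KO 4 h replicate 2, without KO 0 h replicate 3, or without WT 4 h replicate 3, where *Mcm3* and *Mcm4* lost their calls, and the mitotic count was 4 without WT 0 h replicate 2. For *Cdt1* the interaction was 1.06 ± 0.12 SE (adjusted p = 4.38e-06), from a rise in WT and a KO change of -0.20 that was not called (adjusted p = 0.102). For *Tk1* it was 0.93 ± 0.20 (adjusted p = 0.00372), with a rise in WT and a fall in KO. *Mcm3* (0.41 ± 0.11, adjusted p = 0.0214) and *Mcm4* (0.46 ± 0.11, adjusted p = 0.0155) rose in WT and had KO changes of -0.01 and -0.11. *Cenpa* (0.65 ± 0.13, adjusted p = 0.00219) was not called between genotypes at 0 h and rose in WT.

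*Cenpe* reached a like interaction along another path (1.10 ± 0.23, adjusted p = 0.00437). It began 2.25-fold higher in KO, rose in WT, had a KO change of -0.35 that was not called (adjusted p = 0.127), and averaged 31.8 ± 5.96 CPM in WT against 33.5 ± 8.15 CPM in KO after culture (SD, n = 3). *Plk1* had the largest interaction value, 1.79 ± 0.59, at levels under 6 CPM in every library, and was not called (adjusted p = 0.081). *Mki67* fell in both genotypes and its interaction was 0.39 ± 0.26 (adjusted p = 0.496).

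**Figure D5:**
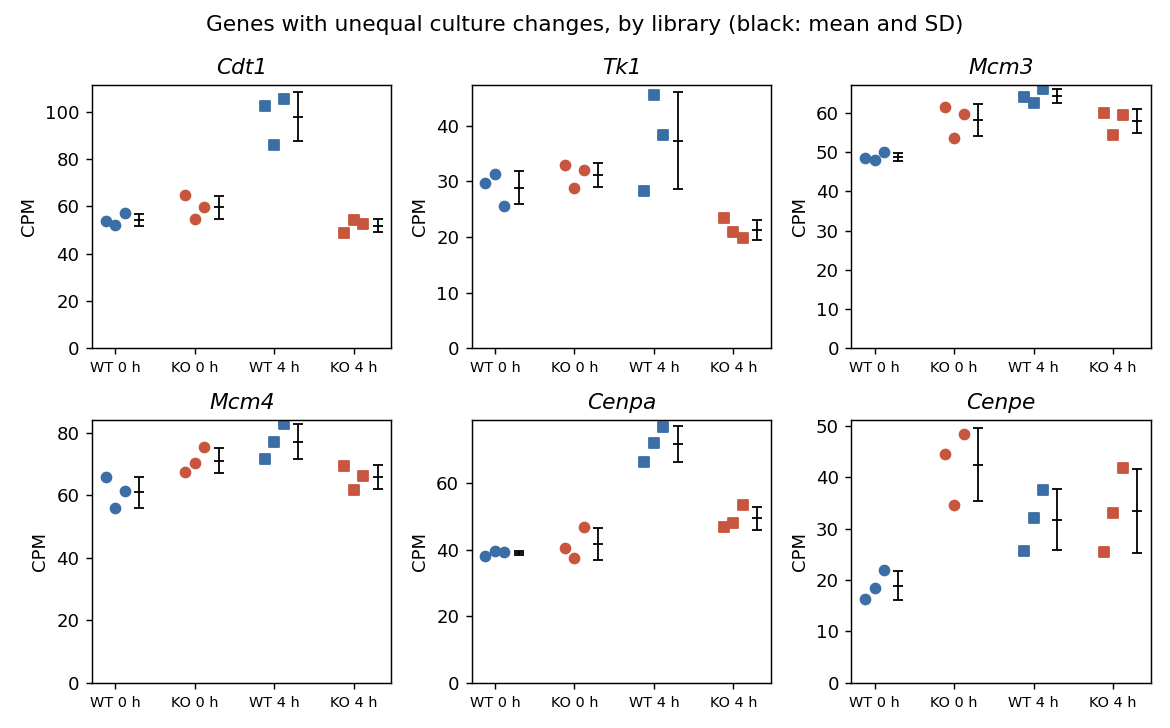
CPM (y axis, from 0) of the 6 genes with a called interaction in each library by group (x axis), with the mean and SD of 3 libraries in black. *Cdt1*, *Tk1* and *Cenpa* were called at 4 h alone, with WT above KO, whereas *Cenpe* lies higher in KO at 0 h and overlaps at 4 h.

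Other genes of these pathways were counted from separate lists. For comparison, 0.485% of all genes tested were called higher in KO and 0.502% higher in WT at 0 h. At 4 h the shares were 5.67% and 5.22%. Of 53 other replication genes 1 was called at 0 h, the initiation factor gene *Mcm10* (higher in KO, log2 -1.75 ± 0.34, adjusted p = 0.0223), and the median was -0.14. Of 58 other mitotic genes tested 5 were called, all higher in KO, led by *Aspm* of the spindle pole (log2 -1.27 ± 0.17, adjusted p = 0.0015) and the centrosomal kinase gene *Nek2* (log2 -1.56 ± 0.29, adjusted p = 0.0155), with a median of -0.61. At 4 h these lists had 2 higher in each genotype, and 1 higher in WT with 2 higher in KO. Of the 53 other replication genes, 7 rose and 6 fell during culture of WT cells, where 15.1% of all genes rose and 18% fell. With KO cells 1 rose and 7 fell, where 10.3% of all genes rose and 13% fell. Of 60 other mitotic genes tested, 10 rose and 2 fell in WT, and 6 rose and 6 fell in KO. In the interaction 2 genes of each list had a higher change in WT and 1 of each a higher change in KO, where 2.45% and 3.94% of all genes did.

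The regulators of cell cycle entry and arrest had 1 call in each direction at 0 h among 25. *Klf2*, a quiescence factor of lymphocytes, was higher in WT (log2 0.43 ± 0.05, adjusted p = 0.000341), and *E2f7*, an E2F that represses S phase genes, was higher in KO (log2 -2.45 ± 0.38, adjusted p = 0.00495). At 4 h *Klf2* was higher in KO (log2 -0.59 ± 0.07, adjusted p = 6.43e-05). Of 39 histone genes of the main clusters, most of them made in S phase, 22 were tested at 0 h. Of the 22, 2 were higher in KO, against 0.485% of all genes: *Hist1h1b* (log2 -1.26 ± 0.20, adjusted p = 0.00671) and *Hist1h2bm* (log2 -1.67 ± 0.38, adjusted p = 0.0488). The median over the 22 was 0.18, on the WT side. Culture lowered 5 of 24 histone genes in WT and 8 in KO and raised 0 in either, by edgeR, where 18% and 13% of all genes were lowered.

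Strand was not stated for the counting, so reads of genes that overlap on opposite strands could not be separated. For *Gins2*, exons of *Gse1* cover 67.3% of its exon bases, and for *Kif20a* exons of *Cdc23* cover 29.3%, and both values are uncertain. For *Ccna2*, *Kif4*, *Ncapg*, *Prc1* and *Mcm7* a listed gene covers 7.25% to 15.1%. Named pseudogenes or related copies exist in RefSeq for *Pcna*, *Tyms*, *Stmn1*, *Ccnb1*, *Ccnb2*, *Kif4* and *Kif22* and could take or lend reads.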

How the data were processed

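Follicular B cells of WT and KO male mice were profiled at 0 h and 4 h, 3 libraries a group, by 50-base single-end RNA-seq of amplified cDNA. The authors aligned reads to mm10 with STAR and counted them per gene with HTSeq (versions, annotation and strand setting not given in the sources used here), and deposited raw counts in a table for 0 h (13269 genes) and one for 4 h (13142 genes), with no row sum under 10. The labels give replicate numbers but do not tie libraries to animals, so p-values measure the spread between these libraries. The study gives 3 mice per genotype for these data, so the 0 h and 4 h libraries of a genotype may share mice. Which do is not stated, and the culture and interaction fits treated all 12 as independent.

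Counts were tested in edgeR 4.0.16 (R 4.3.3; TMM, filterByExpr, glmQLFit and glmQLFTest) with Benjamini-Hochberg adjustment over all genes tested. Genotype used the 6 libraries of a time, and culture and interaction all 12. Genes were called at an adjusted p under 0.05. The SE of an edgeR log2 difference was derived from its test, as the absolute difference over the square root of the F statistic. CPM used TMM-scaled totals; the class mean used log2 CPM with a prior count of 2. Level per kb used the exon union of GENCODE M21 (GRCm38). The design of 3 against 3 cannot reach a permutation p under 0.1. Replicate libraries differed beyond sampling noise in every pair. Scripts were tested on simulated data.

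Genes given in every library were, per class, the 5 with the lowest p at 0 h, the 3 with the lowest p in each other contrast and the 2 with the highest mean CPM; for other lists, the 2 with the lowest p where any was called. Some marker gene results are not reported here. Members and lists were chosen with earlier results of these data known. Alternatives were DESeq2 1.42.0, other scalings, no filter, a replicate block, other libraries in the fit, a threshold of 0.1 for the interaction, and leaving out each library. Non-overlap without KO 4 h replicate 1 was added after seeing the data.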

Additional observations from a re-analysis of the deposited data

Results flagged for a closer look

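The culture change differed between genotypes, by the edgeR interaction test, for 6 of the 53 genes, in each case with the change higher in WT. Over all genes tested, 2.45% had a higher change in WT. The difference of log2 changes (WT minus KO) was 1.06 for *Cdt1*, 0.93 for *Tk1*, 0.41 for *Mcm3*, 0.46 for *Mcm4*, 0.65 for *Cenpa* and 1.10 for *Cenpe*. The calls of *Cdt1*, *Tk1*, *Cenpa* and *Cenpe* held in all 17 alternatives run for them, with adjusted p of at most 0.0209. *Mcm3* kept its call in 13 of 17 and *Mcm4* in 14 of 17, with adjusted p of up to 0.0933 and 0.0589.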

How the results depend on the processing

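Over 50 single-gene calls and 792 alternatives the sign never turned, 704 kept the call and 88 lost it, and 25 calls held under every alternative run for them. At 0 h these were *Ccna2*, *Cenpe*, *Cenpf*, *Kif11*, *Top2a* and *Mki67*. At 4 h *Mki67* lost its call with DESeq2 alone (adjusted p = 0.0511; range over its alternatives 2.32e-05 to 0.0511). With the replicate number as a block, 8 mitotic genes were called at 4 h in place of 4, and 4 in the interaction in place of 2, and the other class counts stayed within 1.5 times. The block is not in the design: same-numbered libraries of WT at 0 h and 4 h correlated at 0.128, 0.0773 and 0.113, each best with its own number, and those of KO at -0.0398, 0.147 and 0.152, where replicate 1 did not. Leaving out each library gave 0 to 2 replication and 6 to 11 mitotic calls at 0 h (6 without KO 0 h replicate 1, 7 without KO 0 h replicate 3), 2 to 3 and 2 to 9 at 4 h (9 without KO 4 h replicate 1), 5 to 8 and 5 to 9 for culture in WT, 2 to 4 and 2 to 12 for culture in KO (2 without KO 4 h replicate 1), and 2 to 4 and 2 to 4 for the interaction (2 replication genes without KO 4 h replicate 2, KO 0 h replicate 3, or replicate 3 of WT at 4 h; 4 mitotic genes without WT 0 h replicate 2). Scaling by library totals moved the median of all genes by 0.11 for culture in WT and 0.09 in KO, and turned the split of the 53 genes for culture in KO from 2 raised and 11 lowered to 4 and 8, and that of all genes for culture in WT from 1750 and 2080 to 3001 and 1500 and in KO from 1193 and 1504 to 2168 and 1101. Leaving *Stmn1* and *Ezh2* out of the replication class could not change a class count, because neither gene was called in any contrast. Low levels limit *Cdk1*, *Cdc6*, *Ccnb1*, *Plk1* and *Stmn1* most.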

Other observations

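The quiescence factor *Klf2* crossed between genotypes in culture, in the direction opposite to the 6 replication and mitotic genes with a called interaction. It fell in WT (log2 -0.84 ± 0.07, edgeR adjusted p = 1.63e-09) and rose in KO (log2 0.18 ± 0.07, adjusted p = 0.0499), and the interaction was -1.02 ± 0.09 (adjusted p = 1.85e-07). Among 26 regulators of cell cycle entry and arrest, 8 rose and 7 fell in WT, where 15.1% of all genes rose and 18% fell. In KO 3 rose and 6 fell, where 10.3% of all genes rose and 13% fell. *Klf2* was the 1 gene of the list with a called interaction, where 3.94% of all genes had a higher change in KO.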
